A study of Mus musculus with 24 samples.

Results

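The 36 genes described here are those of glycolysis and of the transcriptional response to low oxygen, followed through a set of MC38 mouse colorectal cancer cell lines that differ in their glycosylation machinery. They were taken by name: 3 carriers of glucose and lactate, 12 glycolytic enzymes, 3 enzymes that switch glycolytic flux, 6 genes of the hypoxia-inducible factor (HIF) and of oxygen sensing, and 12 further genes commonly listed as HIF targets. All 36 were found among the 52636 gene identifiers of the expression table. Adm, which encodes the peptide adrenomedullin, was at 0 in all 24 samples and Epas1, which encodes the alternative HIF alpha subunit HIF-2alpha, reached at most 2 normalized counts, so that 34 members entered most comparisons.

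RNA sequencing covered 8 lines with 3 samples each. MC38-WT was the parental line, at passages 7 to 9. MC38-MOCK#1 (empty CRISPR-Cas9 vectors) was the reference for MC38-COSMC KO, MC38-CMAS KO and MC38-DKO, in which COSMC (gene C1galt1c1), CMAS, or both had been targeted, all at passages 4 to 6. MC38-MOCK#2 (a CRISPR-dCas-VPR mock, passages 6 to 8) was the reference for MC38-FUT9 (passages 6 to 8) and for the line labelled MC38-FUT4 (passages 7, 8 and 7), in which dCas-VPR, a gene activator without cutting activity, had been directed at a fucosyltransferase gene. All lines but MC38-WT had been through puromycin selection, and the COSMC knockout was a sorted bulk population and not a clone. Cultures were harvested at 70 to 90% confluence. Samples of a line differ by passage in the labels, and nothing names separate derivations of a line, so the p-values below measure the spread between cultures of 1 line.

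Expression was given as normalized counts, that is reads per gene divided by 1 factor per library, with totals of 10911849 to 12263307 per sample. Cmas RNA fell in MC38-CMAS KO (log2 fold change -1.82) and in MC38-DKO (-1.57), and C1galt1c1 RNA fell in MC38-COSMC KO (-0.73) but did not pass the test in MC38-DKO (-0.38, adjusted p = 0.459). The line labelled MC38-FUT4 held Fut9 RNA at 171 to 209 normalized counts, against 641 to 955 in MC38-FUT9 and at most 1 in MC38-MOCK#2, while Fut4 itself was at 0 or 1 in every sample. It is called the line labelled MC38-FUT4 throughout, and no direction below is tied to Fut4. Epcam, Cdh1, Cdx2, Krt18 and Krt19, which mark intestinal epithelium, were at 3 normalized counts or fewer in all 24 samples, and the mesenchymal marker list summed to 20555 to 33380. Nearly all of that sum was Vim, at 19787 to 33315, whereas the collagen genes were low (Col1a1 19 to 255, Col1a2 4 to 131). Markers of immune and endothelial cells summed to at most 6 and 19. Krt20, an intestinal keratin, was the exception among the epithelial markers: it read 448, 263 and 468 in the line labelled MC38-FUT4 and at most 44 elsewhere, and whether it bears on the results of that line was not tested. Of the mesenchymal markers, Pdgfrb read 27 to 189 in MC38-MOCK#1, MC38-DKO and the line labelled MC38-FUT4, and 298 to 1100 in the other 5 lines.

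Glycolysis splits glucose to pyruvate in the cytosol, and lactate dehydrogenase turns pyruvate into lactate that leaves the cell through monocarboxylate carriers. Tumour cell lines commonly run this route fast even with oxygen present. HIF is a pair of proteins: an alpha subunit (Hif1a or Epas1) that is hydroxylated by the oxygen-dependent enzymes of the Egln family, handed to degradation by Vhl, and stable when oxygen is short, and a constant beta subunit (Arnt). The pair binds short DNA motifs at genes of glucose uptake, glycolysis, mitochondrial turnover, collagen modification and blood vessel growth. Egln1 and Egln3 are themselves HIF targets. Since HIF-1alpha is controlled mainly as a protein, the level of Hif1a RNA does not report its activity.

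The promoters of 6 members are shown as examples. Bnip3, Slc2a1 and Egln3 varied together between samples of 1 line, and Pfkp, P4ha2 and Ankrd37 differed between lines. Other members that differed between lines, such as Plod1 and Mxi1, are not shown. Each sequence is the 250 bases before the transcription start in RefSeq (assembly GRCm38.p6), read 5′ to 3′ on the strand of the gene. Capitals mark matches to ACGTG or GCGTG, the core of the hypoxia response element, or to their reverse complements CACGT and CACGC. Overlapping matches run into one another, so that CACGTG counts as a match on each strand. In genome order of the chromosomes the windows are chr4:119108495-119108744 (Slc2a1, plus strand), chr7:138909507-138909756 (Bnip3, minus strand), chr8:45999851-46000100 (Ankrd37, minus strand), chr11:54100674-54100923 (P4ha2, plus strand), chr12:54203875-54204124 (Egln3, minus strand) and chr13:6648772-6649021 (Pfkp, minus strand).
Slc2a1: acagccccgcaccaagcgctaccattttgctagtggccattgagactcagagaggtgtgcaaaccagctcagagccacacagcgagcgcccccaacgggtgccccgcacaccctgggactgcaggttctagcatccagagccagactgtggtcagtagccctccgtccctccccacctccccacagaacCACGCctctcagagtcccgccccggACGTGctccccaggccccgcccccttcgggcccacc
Bnip3: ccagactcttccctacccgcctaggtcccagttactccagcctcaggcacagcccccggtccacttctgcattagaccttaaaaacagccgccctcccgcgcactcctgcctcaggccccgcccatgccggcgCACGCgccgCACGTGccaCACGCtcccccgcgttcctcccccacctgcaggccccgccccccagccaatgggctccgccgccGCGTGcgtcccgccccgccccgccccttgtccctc
Ankrd37: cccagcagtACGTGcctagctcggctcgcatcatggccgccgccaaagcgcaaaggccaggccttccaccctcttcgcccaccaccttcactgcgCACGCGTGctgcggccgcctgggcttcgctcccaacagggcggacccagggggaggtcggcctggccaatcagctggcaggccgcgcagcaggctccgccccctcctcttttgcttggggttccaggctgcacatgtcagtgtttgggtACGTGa
P4ha2: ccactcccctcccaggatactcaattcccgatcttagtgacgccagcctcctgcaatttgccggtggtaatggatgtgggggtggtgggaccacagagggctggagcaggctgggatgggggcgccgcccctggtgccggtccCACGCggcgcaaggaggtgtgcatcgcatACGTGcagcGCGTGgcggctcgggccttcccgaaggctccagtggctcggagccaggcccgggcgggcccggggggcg
Egln3: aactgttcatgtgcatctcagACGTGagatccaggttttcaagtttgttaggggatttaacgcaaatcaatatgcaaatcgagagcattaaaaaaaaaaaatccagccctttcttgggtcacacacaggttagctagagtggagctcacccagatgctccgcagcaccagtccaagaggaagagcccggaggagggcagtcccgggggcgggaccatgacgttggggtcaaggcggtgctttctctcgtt
Pfkp: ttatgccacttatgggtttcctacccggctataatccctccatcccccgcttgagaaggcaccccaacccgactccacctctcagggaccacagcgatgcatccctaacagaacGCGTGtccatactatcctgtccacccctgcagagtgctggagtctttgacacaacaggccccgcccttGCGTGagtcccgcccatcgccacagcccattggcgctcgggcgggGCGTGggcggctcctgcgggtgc
The Bnip3 window held 5 matches, of which the closest began 35 bases before the start, Ankrd37 held 4 with 1 beginning 6 bases before it, P4ha2 and Pfkp held 3 each, Slc2a1 2 and Egln3 1, at 229 bases. Of the 32 members with an entry in the RefSeq table, 29 (90.6%) had a match in at least 1 promoter, against 41.5% of 27025 genes. At least 2 matches were found for 18 of the 32 (56.2%), against 18.7% of all genes. The members without a match were Gpi1, Tpi1 and Vhl. These counts describe letters in the windows and were not corrected for base composition. Bnip3l, Plod2, Slc2a3 and Epas1 had no entry and are not shown.

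Per length, the enzymes of the later steps of glycolysis were the most abundant members. Levels are given here as normalized counts per 1000 exon bases, with the length given for each gene beside the deposited values. Pkm (pyruvate kinase, the last step to pyruvate) averaged 9187 over the 24 samples, ahead of Pgk1 (4665), Eno1 (4541) and Ldha (4519), and then Tpi1 (3044), Pgam1 (2711), Aldoa (2618) and Gpi1 (1024). The upstream enzymes Hk2 (hexokinase, 188) and Pfkp (the platelet-type phosphofructokinase, 136) stood far below them. Among the carriers, the lactate exporter Slc16a3 averaged 639 and the glucose transporter Slc2a1 285, whereas the second glucose transporter, Slc2a3, was close to 0 (0.443). Hif1a (320) was the main alpha subunit by RNA, beside Arnt (128), Egln1 (256), Vhl (118) and Egln3 (81.7). Car9, the membrane carbonic anhydrase often used as a hypoxia marker, averaged 3.51 and Aldoc 6.17. Gapdh, at 600, was below its neighbours in the pathway. Its value, and those of Pgk1, Pgam1, Tpi1, Ldha and Eno1, are uncertain, since near-identical copies and pseudogenes of these genes can take or exclude reads of 1 transcript. Aldoa had 2 identifiers whose spans overlap on the same strand of chromosome 7. All Aldoa values here are those of the longer (3501 exon bases), and the other (799) was left out. How reads fell between them was not tested.

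**Figure D1:**
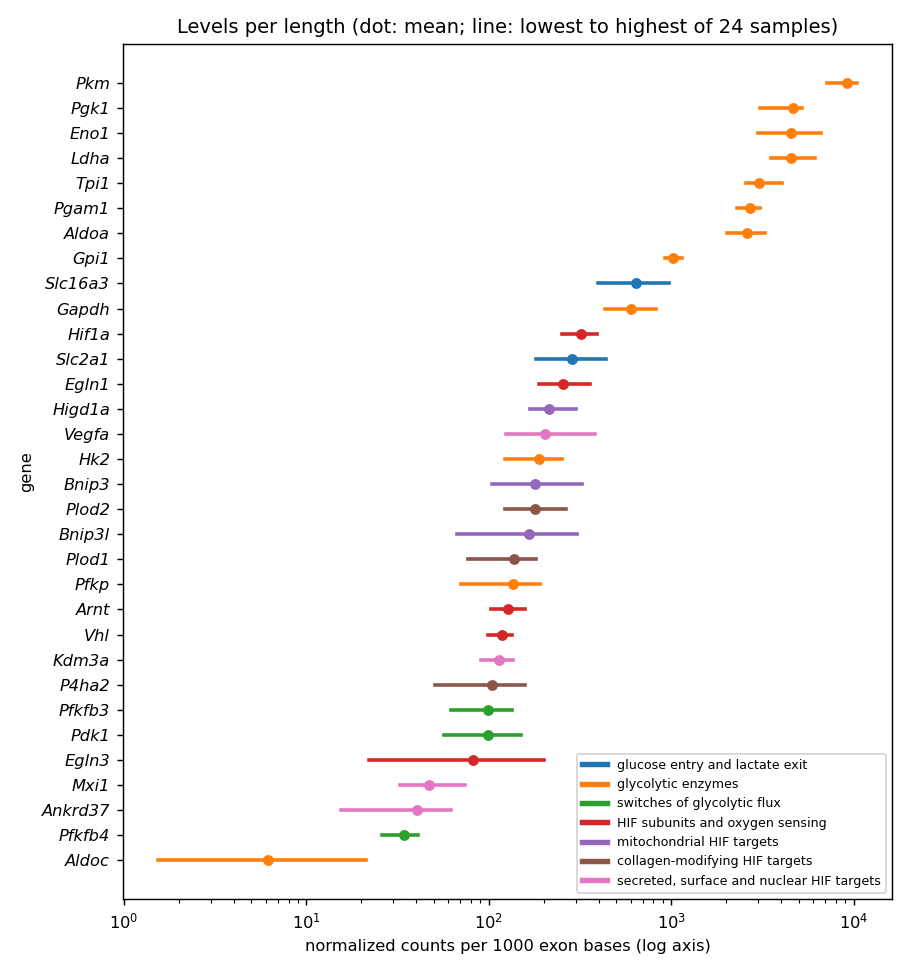
Level of the members in normalized counts per 1000 exon bases on a log axis, for the 32 members above 0 in every sample. Dots are means of the 24 samples, lines run from the lowest to the highest sample, and colours give the role. Pkm leads at 9187 and Aldoc is last at 6.17.

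Eno1 has a near-identical copy, Eno1b, and how reads were divided between them was not tested. Eno1b was at 878 to 1349 normalized counts in 11 samples and at 2934 to 8423 in the other 13, without a level between. In MC38-CMAS KO, for example, Eno1 read 20331, 23920 and 30586 while Eno1b read 8423, 5418 and 1141, and the sums were 28754, 29338 and 31727. The SD of the sum was 1575 there, against 5204 for Eno1 alone. In MC38-DKO the sum spread more than Eno1 alone (SD 1312 against 597), as Eno1b read 2934, 4720 and 4862 while Eno1 read 21379, 22197 and 21034, and in MC38-WT about as much (2138 against 2110). With the sum in place of both genes, no line differed from its reference mock for enolase, and the closest was the line labelled MC38-FUT4 (log2 fold change 0.31, SE 0.086, adjusted p = 0.0544, limma). The sum was lower in MC38-FUT9 than in the line labelled MC38-FUT4 (-0.46, SE 0.071, adjusted p = 0.00328). This sum was formed after the values of Eno1 had been seen.

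**Figure D2:**
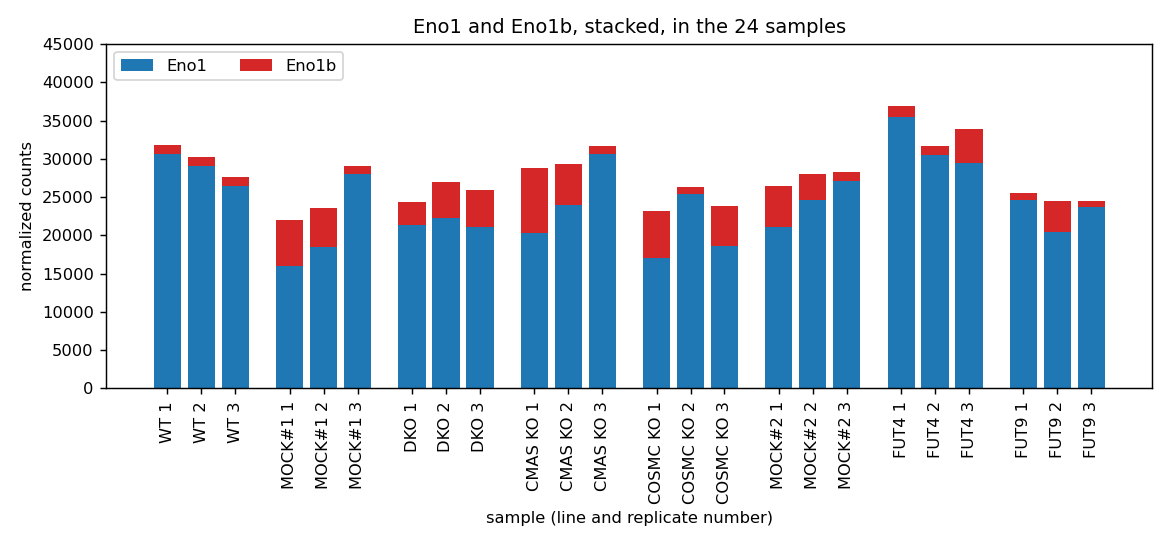
Normalized counts of Eno1 (blue) and its copy Eno1b (red), stacked, for the 24 samples by line. The red part is 878 to 1349 in 11 samples and 2934 to 8423 in 13, and where it is large the blue part is often smaller.

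Within a line, samples differed most for a set of HIF targets and little for some glycolytic enzymes, though not for all. On the log2 scale the SD within lines, pooled over the 8 lines, was 0.635 for Egln3 and 0.529 for Bnip3, a mitochondrial protein that marks mitochondria for removal, which placed them at the 98.0 and 97.4 percentiles of the genes with a mean of at least 100 normalized counts. Vegfa (0.332), which encodes the main angiogenic growth factor, and Slc2a1 (0.307) followed. At the other end, Gpi1 (0.0668, percentile 3.06), Pkm (0.0774, 7.55), Vhl (0.0837, 11.4) and Hif1a (0.0856, 12.5) varied less than most genes, whose median SD was 0.132. Other enzymes did not share this: Gapdh (0.291, percentile 92.6), Eno1 (0.234, 87.2) and Pgk1 (0.173, 72.8) varied more than most genes.

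The variable HIF targets peaked in the same sample of a line. Bnip3 was used as the guide, a choice made after the values had been seen. It was highest in sample 1 of MC38-CMAS KO (535, 409 and 305 normalized counts in samples 1, 2 and 3), MC38-COSMC KO (399, 237 and 235), MC38-DKO (440, 327 and 305) and the line labelled MC38-FUT4 (702, 302 and 628). It was highest in sample 3 of MC38-FUT9 (264, 243 and 373), MC38-MOCK#1 (306, 337 and 641) and MC38-MOCK#2 (295, 292 and 676), and in sample 2 of MC38-WT (294, 735 and 528). The peaks therefore fell on no single passage: they were at passage 4 in the 3 knockout lines, 6 in MC38-MOCK#1, 7 in the line labelled MC38-FUT4, and 8 in MC38-MOCK#2, MC38-FUT9 and MC38-WT. Slc2a1, Arnt and Bnip3l, the sister gene of Bnip3, had their highest sample in the same place in all 8 lines, and Pdk1, Egln1, Egln3, Plod2 and Vegfa in 7. These 8 were the members, of 29 compared, that shared the peak in at least 6 lines, against 15.0% of the 9780 other genes averaging 100 or more. None of the 11 glycolytic enzymes compared did so, a list too short to set apart from the 15.0% of other genes. Of 11 other glycolysis genes, 3 did: Pfkl, Pfkm and Ldhb. Of 22 other HIF targets, 8 did, among them Ndrg1, Ero1l, Bhlhe40, Vldlr and Zfp395 in all 8 lines. The interferon-stimulated gene Isg15, which is no HIF target and was looked up after the values had been seen, shared the peak in 6 lines and had an SD within lines of 1.201. Whether culture density, oxygen or another condition of the single cultures moved these genes was not tested.

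**Figure D3:**
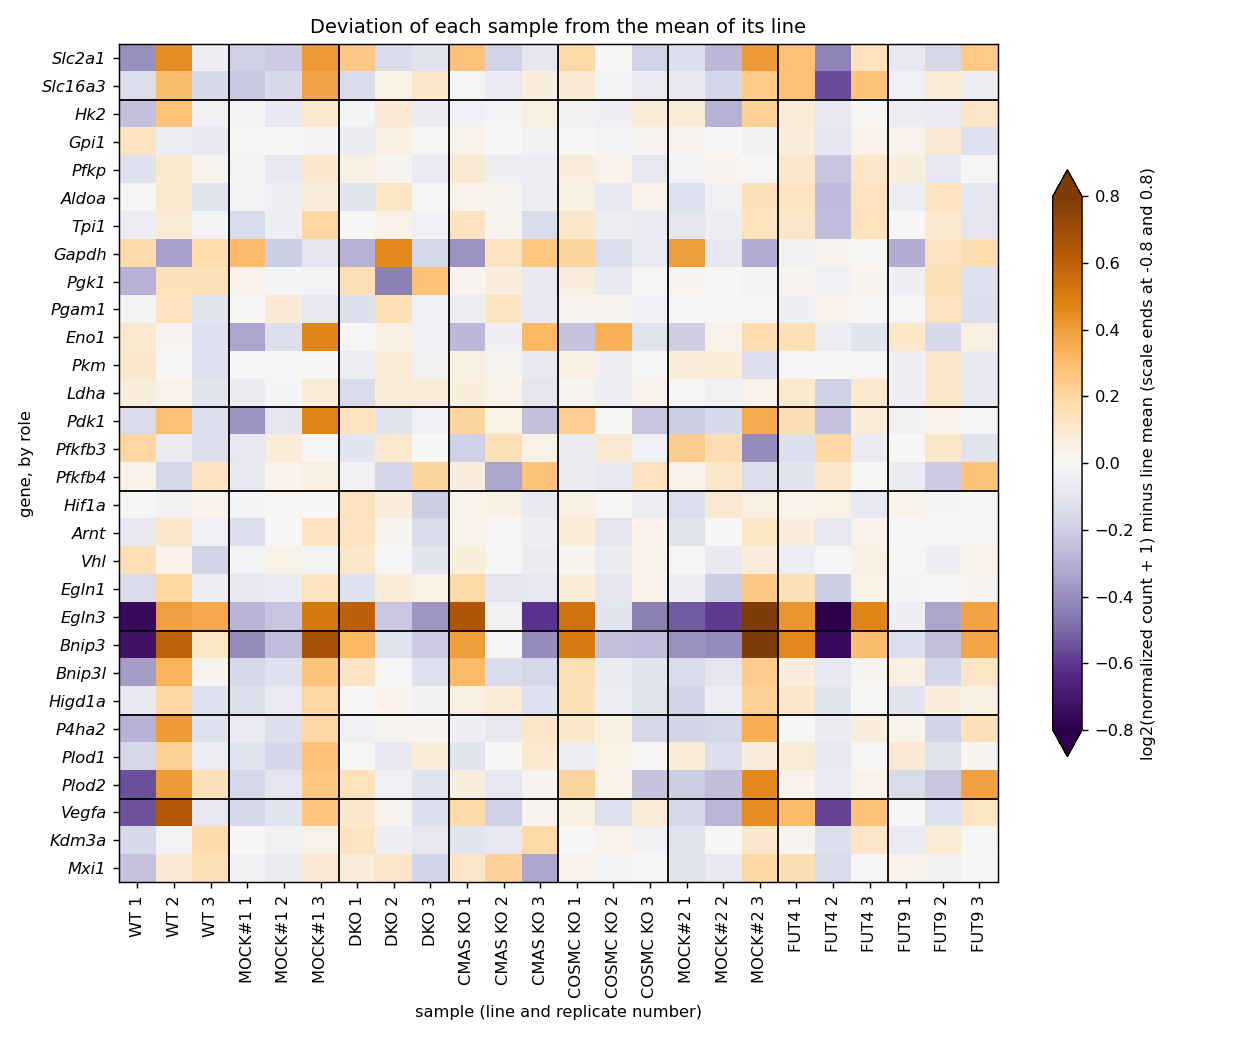
Deviation of each sample from the mean of its own line, in log2(normalized count + 1), for the 30 members with a mean of at least 100, by role. Orange is above and purple below the line mean, each column is 1 sample, and vertical rules separate the lines. Egln3 and Bnip3 are strongest, and sample 3 of MC38-MOCK#2 and sample 2 of MC38-WT stand out for most HIF targets, while Gpi1, Pkm and Hif1a stay pale.

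Between lines, 28 of 34 members differed somewhere among the 8 (82.4%, moderated F test in limma, adjusted p below 0.05), against 48.2% of 20944 genes tested. Members are more abundant than most genes, and with genes of a mean under 10 left out the shares were 27 of 32 members (84.4%) and 67.7%. The largest F values were those of Pfkp (44.6), Bnip3l (27.6) and Plod1 (17.4). The 6 that did not pass were Gpi1, Gapdh, Pgk1, Pfkfb4, Vhl (adjusted p = 0.0504) and Bnip3.

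**Figure D4:**
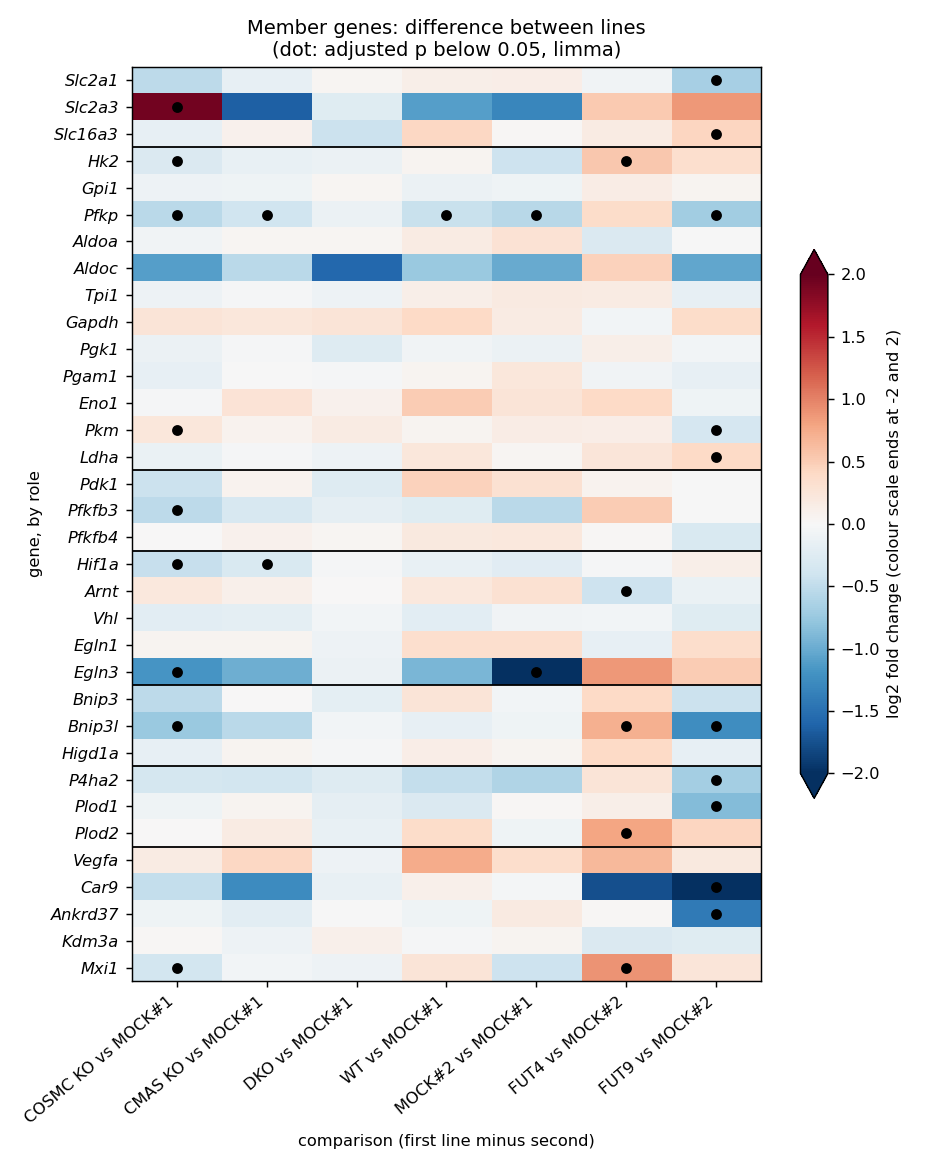
Log2 fold change of the 34 tested members (rows, by role) in 7 comparisons (columns, first line minus second), with blue lower and red higher. Black dots mark an adjusted p below 0.05. Pfkp is marked in 5 of the 7 columns, MC38-DKO against MC38-MOCK#1 has no mark, and MC38-FUT9 has the most (10).

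Against the reference mock, 9 of 34 members passed the test in MC38-COSMC KO (2 higher and 7 lower), a share of 26.5% beside 11.6% of all genes, of which 6.17% were higher and 5.39% lower. Where low genes were left out (a mean under 10), the shares were closer, at 27.3% of members and 22.3% of genes. In MC38-CMAS KO 2 of 35 passed, both lower (5.71%, all genes 5.76%, with 3.02% higher and 2.73% lower), and in MC38-WT 1 of 34, also lower (2.94%, all genes 5.51%, with 2.70% higher and 2.81% lower). None of 34 passed in MC38-DKO by limma, where 0.0920% of all genes were called. There 3 members had an unadjusted p below 0.05, beside 1632 of the 21738 genes tested. In MC38-FUT9 10 of 34 passed (29.4%, all genes 24.1%), 2 higher and 8 lower, where 2596 genes were higher and 2570 lower of 21480, and with low genes left out the members' share was the smaller (34.4% against 38.5%). In the line labelled MC38-FUT4 5 of 34 passed, 4 higher and 1 lower (14.7%, all genes 16.1%, with 8.10% higher and 8.04% lower). MC38-MOCK#2 was below MC38-MOCK#1 for 2 of 34 members and above it for none (5.88%, all genes 11.3%, with 5.30% higher and 6.02% lower). MC38-COSMC KO against MC38-WT gave no call by limma (0.581% of all genes), although 18 of 34 members had an unadjusted p below 0.05, beside 3100 of 21843 genes. The comparisons with MC38-MOCK#1 share its 3 samples, as those with MC38-MOCK#2 do, so they are not independent of each other. Against the reference mocks, the members' median log2 fold changes ran from -0.15 in MC38-COSMC KO to 0.15 in the line labelled MC38-FUT4, beside 0.00 over all genes tested in both, and MC38-COSMC KO against MC38-WT gave -0.27 beside 0.01. The mock lines also differ in construct and passages, and MC38-WT from MC38-MOCK#1 in puromycin and passage, and these cannot be told apart.

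Pfkp, which commits fructose 6-phosphate to glycolysis, had the largest F value of the members, although Bnip3l, Egln3, Ankrd37 and P4ha2 had larger ratios of the highest to the lowest line mean (3.86, 3.63, 2.88 and 2.44, against 2.39 for Pfkp). It read 2349, 2259 and 2567 normalized counts in MC38-MOCK#1, 2270, 2224 and 2104 in MC38-DKO, and 2253, 1787 and 2267 in the line labelled MC38-FUT4. Below them came MC38-CMAS KO (1917, 1755 and 1743), MC38-WT (1626, 1882 and 1781), MC38-COSMC KO (1711, 1672 and 1551) and MC38-MOCK#2 (1596, 1644 and 1624). MC38-FUT9 was lowest, at 1046, 946 and 1005. No sample of MC38-FUT9 overlapped another line, and the samples of MC38-MOCK#1 overlapped only those of MC38-DKO and the line labelled MC38-FUT4. Against MC38-MOCK#1, Pfkp fell in MC38-COSMC KO (log2 fold change -0.54, SE 0.068, adjusted p = 0.00399) and in MC38-MOCK#2 (-0.56, SE 0.067, adjusted p = 0.0047), and both calls held when any 1 sample was left out. It also fell in MC38-CMAS KO (-0.41, adjusted p = 0.0249) and MC38-WT (-0.44, adjusted p = 0.0335), calls that were lost on leaving out any of their 6 samples, with adjusted p up to 0.122 and 0.137. MC38-FUT9 was lower than MC38-MOCK#2 (-0.70, SE 0.061, adjusted p = 0.000642), also without any 1 sample. The line labelled MC38-FUT4 was 1.297-fold higher than MC38-MOCK#2 with no overlap, but did not pass (adjusted p = 0.0513). The Pfkp promoter, printed above, held 3 matches to the hypoxia response core, and whether these bear on the differences was not tested.

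**Figure D5:**
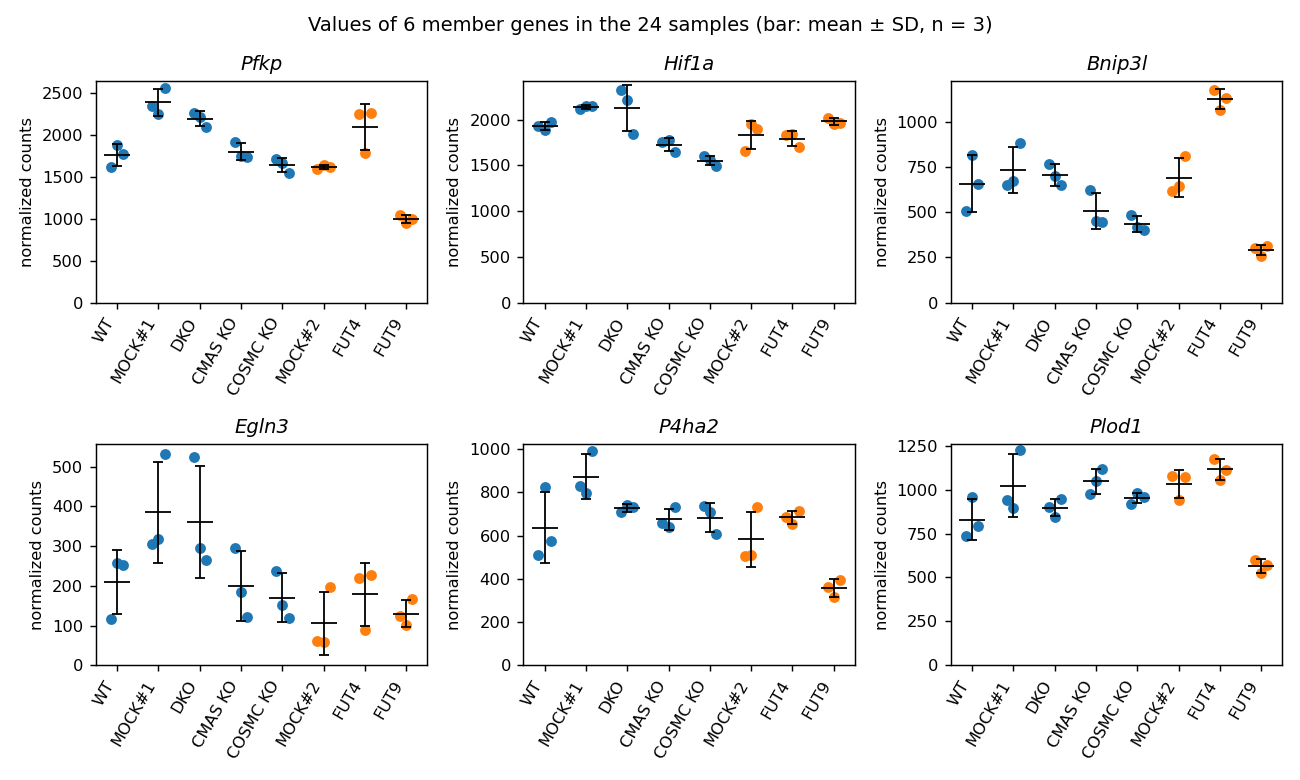
Normalized counts of 6 members in each of the 24 samples by line, with mean ± SD (n = 3) as bars and all axes from 0. Blue lines refer to MC38-WT and the CRISPR-Cas9 set and orange to the dCas-VPR set. MC38-FUT9 lies below the other lines for Pfkp, Bnip3l, P4ha2 and Plod1, and MC38-COSMC KO lies lowest for Hif1a.

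The other glycolytic enzymes moved little. Pkm rose in MC38-COSMC KO (51473, 48367 and 49519 against 42698, 43007 and 42555 in MC38-MOCK#1), a 1.165-fold difference without overlap (log2 fold change 0.22, SE 0.047, adjusted p = 0.0274). In MC38-FUT9 it fell (36485, 40566 and 35634 against 49806, 49980 and 43297 in MC38-MOCK#2, log2 fold change -0.34, adjusted p = 0.0477). Each of these 2 calls was kept on leaving out sample 3 of the mock and lost on leaving out any other sample (adjusted p up to 0.0954 and 0.165). Pkm thus moved in opposite directions in these lines, each against its own mock. Ldha rose in MC38-FUT9 to 18230, 20239 and 17773 from 14231, 13959 and 14549, a log2 fold change of 0.39 (SE 0.076, adjusted p = 0.0113) that held without any 1 sample. Hk2 fell in MC38-COSMC KO (965, 955 and 1034 against 1185, 1137 and 1280, log2 fold change -0.29, adjusted p = 0.0361) and rose in the line labelled MC38-FUT4 (1367, 1226 and 1303 against 945, 729 and 1044, log2 fold change 0.53, adjusted p = 0.0376). The first call was lost on leaving out any 1 sample (adjusted p up to 0.128), the second on leaving out any but sample 3 of MC38-MOCK#2 (up to 0.156). Gpi1, Aldoa, Aldoc, Tpi1, Gapdh, Pgk1, Pgam1 and Eno1 passed in no comparison with a reference mock. Gpi1 ranged from 5955 to 7422 over the 24 samples and Aldoc from 5 to 69. Pgk1 lay between 8605 and 11690 except in sample 2 of MC38-DKO, at 6879.

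The carriers at the ends of the pathway changed in MC38-FUT9 in opposite directions. Slc2a1 fell to 684, 644 and 860 from 1044, 946 and 1510 in MC38-MOCK#2 (log2 fold change -0.66, SE 0.19, adjusted p = 0.0471). Slc16a3 rose to 4197, 4525 and 4163 from 3037, 2840 and 3787 (0.42, SE 0.11, adjusted p = 0.0344). Neither pair of groups overlapped, but the Slc2a1 call was lost on leaving out any 1 sample (adjusted p up to 0.191), and the Slc16a3 call on leaving out any but sample 3 of MC38-MOCK#2 (up to 0.14). Slc16a3 was lower in MC38-DKO than in MC38-CMAS KO (2109, 2409 and 2521 against 3354, 3185 and 3476, log2 fold change -0.51, adjusted p = 0.0113), a call that needed each sample but 1 and 3 of MC38-DKO (up to 0.0798). Slc2a3 rose in MC38-COSMC KO, from 4, 1 and 5 to 13, 11 and 19 normalized counts (log2 of the value plus 1, 1.94, adjusted p = 0.0493), and stayed at 5 or fewer in every other line. That call was lost without any 1 sample (up to 0.162), and at this level Slc2a3 remained far below Slc2a1 per length.

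Of the flux switches, Pfkfb3 fell in MC38-COSMC KO. It makes fructose 2,6-bisphosphate, the activator of phosphofructokinase, and read 608, 676 and 619 against 860, 958 and 917 in MC38-MOCK#1 (log2 fold change -0.52, SE 0.071, adjusted p = 0.0054). The groups did not overlap and the call held without any 1 sample. MC38-MOCK#1 had the highest Pfkfb3 mean of the 8 lines, however. MC38-MOCK#2 read 738, 699 and 469, which overlapped MC38-COSMC KO, and MC38-WT read 885, 742 and 702, which did not. Pdk1, a kinase that inhibits pyruvate dehydrogenase, and Pfkfb4 passed in no comparison with a mock. Pdk1 read 605, 514 and 441 in MC38-COSMC KO, 534, 655 and 966 in MC38-MOCK#1 and 869, 1173 and 876 in MC38-WT, so that it was 0.535 times the wild-type mean without overlap (adjusted p = 0.0527).

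Hif1a RNA fell in 2 knockout lines relative to MC38-MOCK#1. It read 1601, 1561 and 1495 in MC38-COSMC KO and 1757, 1777 and 1640 in MC38-CMAS KO, against 2113, 2153 and 2146 in MC38-MOCK#1. The first difference (log2 fold change -0.46, SE 0.05, adjusted p = 0.00233) held without any 1 sample, and the second (-0.31, SE 0.055, adjusted p = 0.0256) was kept only on leaving out sample 3 of MC38-CMAS KO (up to 0.112 otherwise). MC38-DKO, with both genes targeted, read 2321, 2212 and 1840, which overlapped MC38-MOCK#1. MC38-MOCK#1 stood high among the control lines, since MC38-WT (1927, 1891 and 1968) and MC38-MOCK#2 (1661, 1946 and 1897) also lay below its lowest sample without passing (adjusted p = 0.24 and 0.111), and MC38-CMAS KO overlapped MC38-MOCK#2. Against MC38-WT the level of Hif1a in MC38-COSMC KO was lower without overlap but did not pass (-0.31, adjusted p = 0.106). Egln3, an oxygen sensor and HIF target, fell in MC38-COSMC KO (238, 152 and 120 against 305, 317 and 532, log2 fold change -1.18, SE 0.3, adjusted p = 0.0449) and in MC38-MOCK#2 against MC38-MOCK#1 (62, 59 and 197, log2 fold change -2.04, SE 0.48, adjusted p = 0.0416). Egln3 varied widely within lines, and the first call was lost without any 1 sample (up to 0.198) and the second without any but sample 3 of MC38-MOCK#2 (up to 0.146). Arnt fell in the line labelled MC38-FUT4 (908, 823 and 891 against 1078, 1152 and 1261, log2 fold change -0.41, adjusted p = 0.0159), a call kept only without sample 1 or 3 of MC38-MOCK#2 (up to 0.067 otherwise). Egln1 was 1.26-fold higher in MC38-FUT9 than in MC38-MOCK#2 (1263, 1275 and 1286 against 966, 867 and 1192) without passing (adjusted p = 0.0689). Vhl lay between 298 and 403 in all samples and passed in none of these comparisons.

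Bnip3l, a receptor for the removal of mitochondria, moved in 3 lines. It read 300, 258 and 316 in MC38-FUT9 and 1175, 1065 and 1134 in the line labelled MC38-FUT4, on either side of MC38-MOCK#2 (620, 644 and 814). The fall in MC38-FUT9 (log2 fold change -1.24, SE 0.13, adjusted p = 0.00112) held without any 1 sample. The rise in the line labelled MC38-FUT4 (0.71, SE 0.11, adjusted p = 0.00712) was lost without its sample 1 (adjusted p = 0.0594) or 3 (0.0573). In MC38-COSMC KO it fell to 486, 417 and 404 from 652, 673 and 881 (-0.75, SE 0.13, adjusted p = 0.0139), a call lost without sample 2 (0.0969) or 3 (0.0849) of MC38-COSMC KO or sample 2 of MC38-MOCK#1 (0.0672). Bnip3 and Higd1a, which encodes a small protein of the inner mitochondrial membrane, passed in no comparison with a mock. Bnip3 averaged 290 ± 94.1 (SD, n = 3) in MC38-COSMC KO and 428 ± 185 in MC38-MOCK#1.

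Enzymes that modify collagen fell together in MC38-FUT9 except for Plod2. P4ha2, a subunit of prolyl 4-hydroxylase, read 363, 315 and 394 against 506, 510 and 730 in MC38-MOCK#2 (log2 fold change -0.69, SE 0.16, adjusted p = 0.0236), a call kept only without sample 3 of MC38-MOCK#2 (up to 0.109 otherwise). Plod1, a lysyl hydroxylase, read 601, 524 and 571 against 1080, 939 and 1074 (-0.87, SE 0.086, adjusted p = 0.000944) and held without any 1 sample. In the remaining lines Plod1 stayed between 734 and 1226. Plod2, another lysyl hydroxylase, averaged 1078 ± 264 (SD, n = 3) in MC38-FUT9, and rose in the line labelled MC38-FUT4 to 1385, 1295 and 1392 from 682, 660 and 1081 (0.79, SE 0.18, adjusted p = 0.0307). The Plod2 call was kept only without sample 3 of MC38-MOCK#2 (up to 0.139 otherwise), the sample of that line in which Bnip3 peaked.

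Among the secreted, surface and nuclear targets, Car9 and Ankrd37 fell in MC38-FUT9. Car9 was listed at 0, 0 and 1 there against 9, 4 and 24 in MC38-MOCK#2 (difference -3.10 in log2 of the value plus 1, adjusted p = 0.0153). The call was lost without sample 1 or 2 of MC38-FUT9 or sample 1 of MC38-MOCK#2 (up to 0.0787). Ankrd37, an ankyrin-repeat protein and a HIF target, read 27, 24 and 30 against 96, 45 and 92 (-1.42, SE 0.31, adjusted p = 0.0183), and was kept only without sample 2 of MC38-MOCK#2 (up to 0.0895 otherwise). Both genes were at low counts, and in MC38-FUT9 neither overlapped its mock. Mxi1, an antagonist of Myc, rose in the line labelled MC38-FUT4 to 417, 335 and 369 from 184, 188 and 227 (0.90, SE 0.12, adjusted p = 0.00422) and held without any 1 sample. In MC38-COSMC KO it fell to 208, 202 and 203 from 260, 254 and 282 (-0.37, adjusted p = 0.0303), kept only without sample 3 of MC38-MOCK#1 (up to 0.0818 otherwise). Vegfa passed in no comparison with a mock: it read 1557, 840 and 1518 in the line labelled MC38-FUT4 and 723, 1639 and 997 in MC38-WT, against 716, 664 and 1097 and 565, 585 and 756 in their mocks. Kdm3a, a histone demethylase, ranged from 742 to 1123 and passed in no comparison of a pair of lines, but did pass the F test over all 8 (adjusted p = 0.0339).

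The COSMC knockout was also compared on each CMAS background, since MC38-DKO and MC38-CMAS KO differ by COSMC targeting just as MC38-COSMC KO and MC38-MOCK#1 do. With CMAS targeted, 3 of 35 members differed, 1 higher and 2 lower (8.57%, all genes 6.93%, with 3.15% higher and 3.78% lower): Slc16a3, already given, Pfkp, higher in MC38-DKO (0.29, SE 0.069, adjusted p = 0.0478), and Vegfa, lower there (632, 592 and 536 against 950, 736 and 849, log2 fold change -0.52, adjusted p = 0.0313). Both the Pfkp and the Vegfa call were lost without any 1 sample (up to 0.156 and 0.132). The difference between the 2 effects, tested as an interaction in limma, passed for 10 of 34 members, 1 above and 9 below 0 (29.4%, all genes 22.1%, with 11.0% above and 11.1% below). It was -0.82 for Pfkp (SE 0.098, adjusted p = 3.87e-05), from -0.54 without and 0.29 with CMAS targeting. For Hif1a it was -0.76 (SE 0.11, adjusted p = 0.000244), from -0.46 and 0.29, for Bnip3l -1.24 (SE 0.2, adjusted p = 0.000482), from -0.75 and 0.49, and for Egln3 -2.05 (SE 0.48, adjusted p = 0.00704), from -1.18 and 0.87. With CMAS targeted, the effects on Hif1a, Bnip3l and Egln3 did not pass by themselves. Egln3 averaged 385 in MC38-MOCK#1 and 361 in MC38-DKO, its highest line means, beside 209 in MC38-WT and 106 in MC38-MOCK#2. For Hif1a these means were 2137, 2124, 1929 and 1835, and for Bnip3l 735, 706, 659 and 693. Slc2a1, Hk2, Pfkfb3, Vhl and P4ha2 also gave differences below 0, from -0.31 for Hk2 to -0.72 for Slc2a1, with adjusted p between 0.00222 and 0.0483. Vegfa was the member above 0 (0.68, adjusted p = 0.00992). With low genes left out (mean under 10), members and all genes passed this test at nearly equal shares (34.4% and 34.1%). C1galt1c1 RNA itself gave a difference of -0.73 in this test (adjusted p = 0.0201), as it was 145, 163 and 124 in MC38-COSMC KO, and 206, 166 and 175 in MC38-DKO beside 215, 181 and 152 in MC38-CMAS KO.

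MC38-FUT9 and the line labelled MC38-FUT4 were compared directly after their values against the mock had been seen. Here 14 of 34 members differed (41.2%, all genes 31.5%), 3 higher and 11 lower in MC38-FUT9, against 15.7% and 15.8% of all genes. With genes of a mean under 10 left out, 16 of 32 members and 48.7% of all genes passed. Bnip3l showed the widest gap of those well above background (log2 fold change -1.95, SE 0.089, adjusted p = 3.34e-05), a 0.259-fold level. Pfkp (-1.07), Plod1 (-0.98), P4ha2 (-0.94), Ankrd37 (-1.45), Higd1a (-0.56), Mxi1 (-0.66), Pkm (-0.48) and Pfkfb3 (-0.53) were lower as well, with adjusted p between 0.000174 and 0.00743, and held without any 1 sample. Egln1 (0.52, adjusted p = 0.00585) and Arnt (0.28, adjusted p = 0.00922) were higher and held too. Glycolytic enzymes gave 1 call higher (Gapdh) and 4 lower (Pfkp, Aldoc, Eno1 and Pkm) of 12.

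Further genes of these pathways were listed by name and not by how they moved. The longest list was that of 30 other HIF targets. In MC38-COSMC KO 10 of the 28 tested rose and 2 fell, where 6.17% and 5.39% of all genes did. Among the members 2 rose and 7 fell there, and the difference between the lists was not tested. Ddit4, an inhibitor of mTORC1, rose by 1.17 on the log2 scale (adjusted p = 0.00249) and Vldlr, a lipoprotein receptor, by 1.14 (adjusted p = 0.0125). Car12 (1, 0 and 1 against 9, 9 and 15) and Nrn1 (-0.40) fell. In MC38-CMAS KO 8 of 28 rose and none fell (3.02% and 2.73% of all genes), among them Vldlr (1.29) and Ddit4 (0.94). In MC38-WT 5 of 29 rose and none fell (2.70% and 2.81% of all genes), among them Slc6a8 (0.96), a creatine carrier, and Ero1l (0.96), an oxidase of the endoplasmic reticulum. In MC38-DKO none of 28 passed by limma, and 4 had an unadjusted p below 0.05, beside 1632 of the 21738 genes tested. MC38-MOCK#2, too, was above MC38-MOCK#1 in 7 of 28 (5.30% of all genes), among them Ddit4 (1.71) and Vldlr (1.21), and below it in 2 (6.02%). Vldlr and Ddit4 were therefore above MC38-MOCK#1 in the second mock line as well as in the lines with COSMC or CMAS targeted alone, and these calls share the 3 samples of MC38-MOCK#1. MC38-DKO against MC38-CMAS KO gave 8 of 27 lower and none higher (3.78% and 3.15% of all genes), among them Vldlr (-0.87) and Slc6a8 (-0.84). With genes of a mean under 10 left out, the shares of all genes were larger. Then 1539 of 13502 rose in MC38-COSMC KO, 817 of 13504 in MC38-CMAS KO and 664 of 13515 in MC38-WT. In MC38-DKO against MC38-CMAS KO 946 of 13512 fell. The list itself was not counted under that filter.

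Within the dCas-VPR set, other HIF targets moved both ways. In MC38-FUT9 7 of 27 rose, led by Angptl4 (42, 48 and 41 against 8, 9 and 4, log2 fold change 2.54), Slc6a8 (1.21) and Ero1l (1.17), and 6 fell, led by Loxl2 (-2.85), Ddit4 (-1.34) and Bhlhe40 (-0.83), beside the counts over all genes given above. In the line labelled MC38-FUT4 8 of 27 rose and 6 fell (8.10% and 8.04% of all genes, or 1688 and 1863 of 13445 with a mean of at least 10). Car12, a carbonic anhydrase like Car9, read 239, 219 and 231 there against 0, 0 and 1, while Car9 read 3, 0 and 7 against 9, 4 and 24 and did not pass. Angptl4 (1.93) and Zfp395 (1.24) also rose, and Loxl2 (-2.27) and Bhlhe40 (-1.03) fell. Angptl4 and Ero1l rose, and Loxl2 and Bhlhe40 fell, in both lines.

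The remaining lists are short, and their shares were not compared with one another. Of the 18 other glycolysis genes, 1 rose and 2 fell of 13 tested in MC38-COSMC KO (6.17% and 5.39% of all genes). In MC38-CMAS KO 1 of 14 rose (3.02% of all genes), and in MC38-WT 1 of 13 fell (2.81%). MC38-FUT9 gave 1 higher and 1 lower of 13, where 24.1% of all genes were called. In the line labelled MC38-FUT4 2 of 15 rose (8.10% of all genes), among them Ldhb, the second lactate dehydrogenase subunit (625, 539 and 654 against 214, 186 and 283, log2 fold change 1.43, adjusted p = 0.00222), and MC38-MOCK#2 against MC38-MOCK#1 gave 1 higher and 4 lower of 14 (5.30% and 6.02% of all genes). MC38-FUT9 against the line labelled MC38-FUT4 gave 1 higher and 6 lower of 14 (15.7% and 15.8%). Of 7 genes of the pentose phosphate pathway, which draws on glucose 6-phosphate, 2 rose and 2 fell in MC38-FUT9. There 24.1% of all genes were called, or 38.5% with genes of a mean under 10 left out. Pgd, its second dehydrogenase, fell from 7369, 7985 and 6156 to 3367, 3559 and 3410 (-1.05, adjusted p = 0.000883), and Tkt, a transketolase, rose (0.50, adjusted p = 0.00164). Tkt rose too in MC38-COSMC KO (0.46), MC38-CMAS KO (0.33) and the line labelled MC38-FUT4 (0.50), each against its mock. Pdhb, a subunit of pyruvate dehydrogenase, rose in MC38-FUT9 (1538, 1730 and 1571 against 878, 961 and 981, 0.78), the line labelled MC38-FUT4 (0.55), MC38-COSMC KO (0.39) and MC38-WT (0.55). Pdk3, an inhibitory kinase of the same complex, fell in the line labelled MC38-FUT4 (-0.63), MC38-FUT9 (-0.49) and MC38-COSMC KO (-0.37). Of 8 other oxygen-sensing genes, Egln2 rose in MC38-FUT9 (0.37, adjusted p = 0.0113) and Rbx1, part of the ligase that Vhl recruits, was higher in MC38-MOCK#2 than in MC38-MOCK#1 (0.25, adjusted p = 0.0435). Of 5 genes of the hexosamine route to UDP-GlcNAc, Gnpnat1 rose in MC38-FUT9 (0.74), MC38-COSMC KO (0.53) and MC38-WT (0.84), and Uap1 in MC38-FUT9 (0.35).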

How the data were processed

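RNA from 24 samples (8 lines, 3 each) was sequenced as stranded poly(A) libraries. The authors aligned reads to GRCm38 with HISAT2 2.0.4, handled alignments with SAMtools 0.1.19, counted reads per gene with featureCounts of Subread 1.5.0-p3, which leaves out reads that overlap several genes, and scaled the counts with edgeR 3.18.1. The deposited values, a score here rather than raw counts, are counts scaled by 1 factor per library and rounded to whole numbers, so that counting models were not used and raw depth is not known.

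Differences between lines were tested with limma 3.58.1 in R 4.3.3 on log2(normalized count + 1), with a mean-variance trend, on the 6 samples of each comparison, the 12 of the interaction or all 24 for the F test. Genes with more than 4 zeros among 6 samples were left out (8 among 12, 16 among 24). Genes were called at a two-sided Benjamini-Hochberg adjusted p below 0.05 over all genes tested. The limma fit of each comparison, at its main settings, was tested on simulated data in which genes varied independently of one another. The alternatives, the Eno1 sum, the spread and order of samples and the promoter search were not simulated. Levels per length used the gene lengths given beside the deposited values, and promoters came from the RefSeq table. Figures were drawn with matplotlib 3.10.9 from tables built with pandas 2.3.3 and numpy 2.4.6 in Python 3.11.15.

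All 36 members were accounted for. Values of each sample were printed for members called against a mock, by rule up to the 8 with the largest change per comparison and in fact for all of them, and pathway genes were named from the 3 largest changes per list and direction (1 listed gene is not reported here by name, though it stays in the counts), with Egln2, Tkt, Pdhb, Pdk3, Gnpnat1 and Uap1 followed through the lines after their values had been seen. The members and lists were chosen with earlier results of these data known, and no count over a list is independent support for it. The direct comparison of MC38-FUT9 with the line labelled MC38-FUT4, the sum of Eno1 and Eno1b and the order of samples by Bnip3 were added after values had been seen. Alternatives covered the pseudocount (0.5 and 5), the filter, the scaling, the trend, a replicate block, a single fit of all lines and leaving out each sample. No sample was a copy of another sample of its own line, and samples of different lines were not compared in this way.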

Additional observations from a re-analysis of the deposited data

Results flagged for a closer look

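The following results were set apart because an effect differed between groups in a test of the difference itself. The effect of targeting COSMC without CMAS targeting minus the effect with it, on the log2 scale, was -0.72 for Slc2a1, -0.31 for Hk2, -0.82 for Pfkp, -0.66 for Pfkfb3, -0.76 for Hif1a, -0.34 for Vhl, -2.05 for Egln3, -1.24 for Bnip3l, -0.46 for P4ha2 and 0.68 for Vegfa. All 4 lines enter this difference, so a line that stands apart for any reason moves it, and C1galt1c1 RNA was not lower in MC38-DKO than in MC38-CMAS KO.

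Both dCas-VPR lines were compared with the same mock, and their difference, MC38-FUT9 minus the line labelled MC38-FUT4, is their direct contrast. It was -1.07 for Pfkp, -1.51 for Aldoc, 0.42 for Gapdh, -0.48 for Eno1, -0.48 for Pkm, -0.53 for Pfkfb3, 0.28 for Arnt, 0.52 for Egln1, -1.95 for Bnip3l, -0.56 for Higd1a, -0.94 for P4ha2, -0.98 for Plod1, -1.45 for Ankrd37 and -0.66 for Mxi1. The Aldoc call was kept only without sample 2 of either line (adjusted p up to 0.115 otherwise), the Gapdh call only without sample 1 of MC38-FUT9 (up to 0.167), and the Eno1 call was lost without sample 1 of the line labelled MC38-FUT4 (0.0546). Groups of 3 samples were too small to test for a single sample that stands apart.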

How the results depend on the processing

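No call changed direction under any alternative that gave it a value. Of 92 results of single genes in a comparison, 84 of them calls, a pseudocount of 0.5 lost 1 call, a pseudocount of 5 lost 4, median-of-ratios scaling 1, scaling to the same total 3, no filter 6 and a mean of at least 10, with a value for 88 of them, lost 1 (Pkm in MC38-FUT9) and added 1 (Egln1 in MC38-FUT9). Without a variance trend 32 were lost. A fit of all 8 lines, with a value for 54, lost 8, among them 4 in MC38-COSMC KO (Hk2, Pkm, Egln3 and Mxi1), and added 4. The causes were not tested.

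The number of members called against MC38-MOCK#1 was 9 for MC38-COSMC KO, 2 for MC38-CMAS KO, 1 for MC38-WT and 2 for MC38-MOCK#2. With all 8 lines in a single fit these became 5, 4, 3 and 10, and without a trend 3, 0, 0 and 1. The line labelled MC38-FUT4 went from 5 to 11 in the single fit and to 2 without a trend, and MC38-FUT9 from 10 to 6 without a trend. MC38-DKO against MC38-CMAS KO went from 3 to 0 without a trend and the interaction from 10 to 6. With a mean of at least 10 the count was 4 between the mock lines and 5 for MC38-DKO relative to MC38-CMAS KO. MC38-COSMC KO against MC38-WT went from 0 to 6 in the single fit, to 2 with a pseudocount of 5 and with median-of-ratios scaling, and to 1 with no filter and with a mean of at least 10.

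Leaving out 1 sample at a time gave 3 to 7 members for MC38-COSMC KO, 0 to 1 for MC38-CMAS KO, 0 to 0 for MC38-DKO and MC38-WT, 1 to 7 for the line labelled MC38-FUT4, 4 to 12 for MC38-FUT9, 1 to 4 for MC38-MOCK#2 against MC38-MOCK#1, 0 to 1 for MC38-DKO against MC38-CMAS KO, 0 to 0 for MC38-COSMC KO against MC38-WT, 11 to 19 for MC38-FUT9 against the line labelled MC38-FUT4, 22 to 30 for the F test and 6 to 10 for the interaction.

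Same-numbered samples did not deviate together throughout (correlations from -0.2132 to 0.2537 over 13515 genes, with some below 0.1 in every comparison), so the number was not taken as a pairing. The correlations were all above 0 for MC38-FUT9 against MC38-MOCK#2 (0.0928 to 0.1929) and MC38-MOCK#2 against MC38-MOCK#1 (0.0821 to 0.2537). The same held for MC38-DKO against MC38-CMAS KO (0.0641 to 0.1824). With the replicate block the members called were 0 for MC38-COSMC KO, MC38-CMAS KO and MC38-WT, 2 for the line labelled MC38-FUT4, 4 between the mock lines and 1 for MC38-DKO relative to MC38-CMAS KO, and 22 calls were lost in all, Pfkp and Hif1a in both knockout lines among them.

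Over all genes, calls without a trend fell from 2563 to 1135 for MC38-COSMC KO, 1268 to 726 for MC38-CMAS KO, 1192 to 717 for MC38-WT, 3509 to 2270 for the line labelled MC38-FUT4, 5166 to 3430 for MC38-FUT9, 2454 to 1389 for MC38-MOCK#2 and 1515 to 692 for MC38-DKO against MC38-CMAS KO, and rose from 20 to 40 for MC38-DKO. The single fit gave 2207, 2981, 3976 and 2403 for MC38-CMAS KO, MC38-WT, MC38-MOCK#2 and the pair of MC38-DKO and MC38-CMAS KO, 159 for MC38-DKO and 945 in place of 127 for MC38-COSMC KO against MC38-WT. The replicate block gave 4, 1, 0 and 0 for MC38-COSMC KO, MC38-CMAS KO, MC38-DKO and MC38-WT against MC38-MOCK#1, 1756 for the line labelled MC38-FUT4, 795 for MC38-DKO against MC38-CMAS KO and 0 for MC38-COSMC KO against MC38-WT. Scaling to the same total changed the split of higher and lower genes from 1367 and 1196 to 1125 and 1746 for MC38-COSMC KO, and from 2596 and 2570 to 1979 and 3237 for MC38-FUT9. Genes near 0 (Slc2a3, Car9, Epas1, Adm) are limited by depth.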
